A study of Arabidopsis thaliana with 10 samples.

Results

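The plastid genome of Arabidopsis thaliana encodes, besides proteins of photosynthesis, part of the machinery that expresses it. A plastid-encoded RNA polymerase resembling the bacterial enzyme transcribes most of its genes, a ribosome built from plastid-encoded and nuclear-encoded proteins translates them, and a few further genes encode a protease subunit, a lipid enzyme subunit, an intron maturase and assembly factors. Many of the genes lie in clusters that are transcribed together and then processed, and senescing leaves are known for the loss of plastid ribosomes and of photosynthetic proteins. The genes described here are those whose probe set on the array names exactly 1 protein-coding gene of the plastid genome and whose symbol is not one of the photosystem, cytochrome complex, ATP synthase, NDH complex or Rubisco symbols. They number 26 probe sets for 26 genes, out of 12184 probe sets tested and 22810 on the array. Ribosomal proteins of the small subunit account for 8, those of the large subunit for 7, polymerase subunits for 4 and other functions for 7. Names followed the TAIR10.1 annotation.

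All 26 reached a signal of 50 on at least 2 of the 10 arrays, the filter used throughout, and 23 did so on every array. The exceptions were rps14, which reached 50 on 8 arrays, and rpoB and rpl36, which did so on 6 each. A further 6 plastid genes outside the photosynthesis groups (rps12, rps7, rpl2, rpl23, ycf1 and ycf2) sit on 7 probe sets that name more than 1 annotation entry and were not used. For comparison, 43 probe sets name 1 plastid-encoded photosynthesis gene.

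RNA was extracted from fully expanded leaves of plants grown in compost with days of 12 h, and each of 5 groups had 2 arrays. The groups were NahG, ein2, coi1 and wild type, each at growth stage 6.0, and wild type at stage 3.9. The labels give Columbia as the background of the 3 altered genotypes and call each of them transgenic. NahG plants express a bacterial salicylate hydroxylase that removes salicylic acid. Mutants in EIN2 do not respond to ethylene, and mutants in COI1, part of the jasmonate receptor, do not respond to jasmonate. The labels give no promoter for NahG and no allele for ein2 or coi1, and the mutated genes were not checked on the arrays. In the growth scale commonly used for this plant, stage 3.9 is the completed rosette and stage 6.0 the first open flower. Each wild type group held stock N933 as array 1 and stock N1644 as array 2. For the stage 6.0 array of N1644, however, another label field names Col-0, the line of the N933 arrays. The coi1 arrays also carry the stock code of the ein2 arrays, N3071. No label says whether the 2 arrays of NahG, ein2 or coi1 came from separate plants, so the spread within these groups may be only technical, while that within the wild type groups includes any difference between stocks. Values are MAS5 signals on a linear scale, each array scaled to the same trimmed mean, and differences are given as log2 of signals after 16 was added.

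A control measure set 3 arrays apart, and for some of the genes described here these arrays were also the dimmest. The array's control probe set for 5S ribosomal RNA had a signal of 2.11 and 2.22 on the 2 coi1 arrays and 3.62 on wild type stage 6.0 array 1. The other arrays read 443.9 and 194.6 (NahG), 554.2 and 469.8 (ein2), 598.5 (wild type stage 6.0 array 2) and 380.4 and 539.7 (wild type stage 3.9). A control for 25S ribosomal RNA did not set the same 3 arrays apart. It read 29.3 and 66.2 (coi1) and 24.8 (wild type stage 6.0 array 1), with 14.3 to 105.3 on the other arrays. On wild type stage 6.0 array 1 the 3′ to 5′ ratio of an actin control, a measure of RNA integrity, was 10.0, against 4.09 to 7.55 on the other arrays, while that of a second actin control was 2.08, within the overall range of 1.54 to 2.7. Both coi1 arrays are among the 3 arrays of low 5S signal, so coi1 has no value without those.

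In wild type leaves, signals of the 26 genes were mostly lower at stage 6.0 than at stage 3.9. Of the 26 genes 17 fell and 0 rose (limma, Benjamini-Hochberg adjusted p under 0.05 over all probe sets tested), which is 65.4%, while 17.2% of all probe sets tested fell. The median log2 difference was -1.09 for the 26 genes and 0.05 for all probe sets tested. Falls were counted in each class: 6 of 8 small subunit genes (median -1.15), 5 of 7 large subunit genes (-1.18), 2 of 4 polymerase genes (-1.05) and 4 of 7 other genes (-0.85). Both stage 6.0 arrays lay below both stage 3.9 arrays for 22 of the 26 genes (84.6%), against 30.8% of all probe sets tested. Since these are bulk leaf samples, fewer cells of a type and less RNA per cell cannot be told apart.

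The size of the stage difference depended on which wild type array was used at stage 6.0. Within stock N933 the median difference between stages was -1.54 and all 26 genes were lower at stage 6.0, and within stock N1644 it was -0.63 with 22 genes lower and 4 higher. The medians over all probe sets tested were 0.02 within N933 and 0.08 within N1644. Every one of the 26 differences was more negative, or less positive, in N933. Leaving out 1 array of a wild type group leaves that group with 1 array. The fit then takes its spread from the other groups, so the p of such a fit cannot measure the spread removed. Without wild type stage 6.0 array 1 the number of genes that fell was 4, namely rps3 (-1.04, adjusted p = 0.00664 in limma), rpoC1 (-0.92, 0.0274), rpl32 (-1.0, 0.0304) and rps18 (-0.89, 0.0355). Of all probe sets tested 12.2% fell there. Without array 2 of that group 21 of the 26 genes fell, beside 15.1% of all. Without stage 3.9 array 1 the count was 9, beside 15.4% of all, and without stage 3.9 array 2 it was 14, beside 14.2%. With all 3 arrays of low 5S signal left out, a setting chosen after seeing the data, 5 genes fell, rps3, rpoC1, rpl32, matK and clpP, beside 10.9% of all probe sets tested, and the median was -0.65.

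The difference also depended on what the arrays were scaled to. Bacterial and phage controls added before hybridisation had a geometric mean signal of 231.6 and 256.1 on the stage 6.0 wild type arrays, against 441.7 and 412.0 on the stage 3.9 arrays. Scaled to these controls, the median of all probe sets tested moved to 0.72 and that of the 26 genes to -0.31, which is -1.04 relative to all. There 23 of the 26 differences were negative, the exceptions being accD (0.51), clpP (0.13) and ccsA (0.06). All 26 were below the median of all probe sets under that scaling, and only rpoB passed the test there (-1.26, adjusted p = 0.0183 in limma), beside 3.64% of all probe sets that fell.

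**Figure D1:**
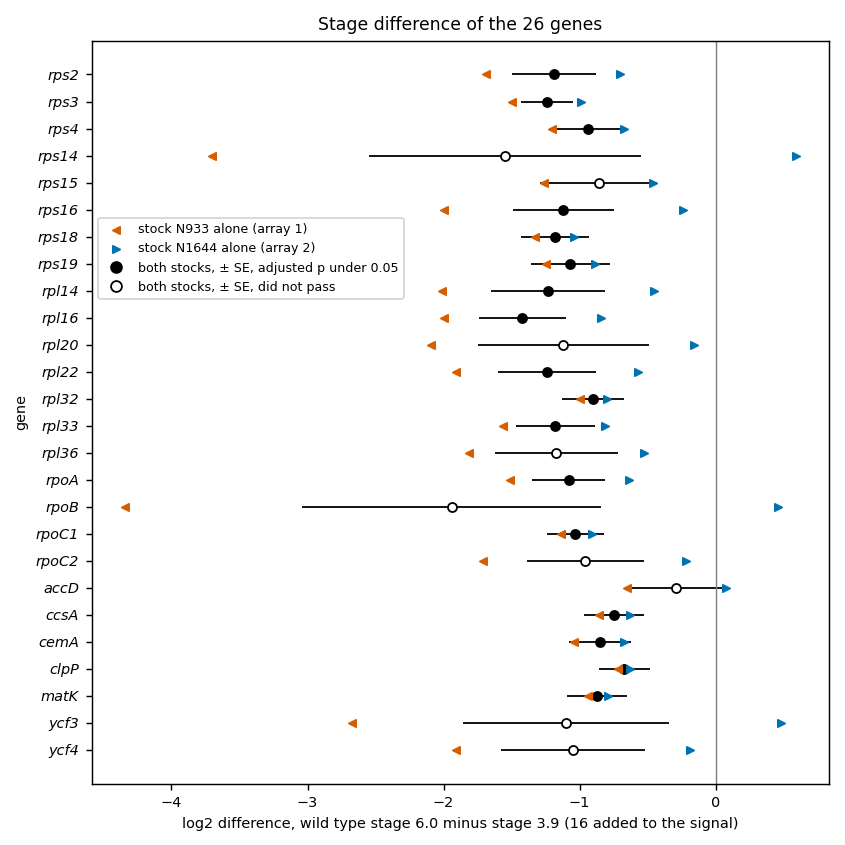
Stage difference of the 26 genes in wild type leaves, stage 6.0 minus stage 3.9, in log2 of the signal with 16 added; circles are the estimate over both stocks with its standard error, filled where the adjusted p is under 0.05, and triangles are each stock alone. All 26 circles lie left of 0 (accD, clpP and ccsA lie right of 0 when scaled to the hybridisation controls), all 26 N933 triangles lie left of 0, and the N1644 triangles of rpoB, rps14, ycf3 and accD lie right of it.

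The 4 polymerase genes encode the core of the plastid-encoded enzyme, its alpha (rpoA), beta (rpoB) and both parts of the beta-prime subunit (rpoC1, rpoC2). Signals of rpoC1 were 1043.8 and 913.9 in NahG, 1043.8 and 844.3 in ein2, 805.8 and 1128.0 in coi1, 878.9 and 1025.6 in stage 6.0 wild type, with 1959.5 and 1942.5 in stage 3.9 wild type. All 8 stage 6.0 arrays lay below both stage 3.9 arrays and within a narrow band. In wild type rpoC1 fell by 1.03 ± 0.21 on the log2 scale (SE, adjusted p = 0.00285 in limma), a 2.04-fold lower level at stage 6.0. The fall of rpoC1 passed under all alternatives tried except scaling to the hybridisation controls (-0.23, adjusted p = 0.633).

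For rpoA the signals were 520.0 and 530.9 in NahG, 394.2 and 302.8 in ein2, 316.3 and 348.4 in coi1, 292.7 and 578.1 in stage 6.0 wild type, with 865.2 and 912.2 in stage 3.9 wild type. The stage 6.0 arrays again all lay below those of stage 3.9, with the wild type arrays the lowest and the highest of the 8. In wild type rpoA fell by 1.08 ± 0.27 (SE, adjusted p = 0.00932 in limma). Without stage 6.0 array 1 the rpoA difference was -0.61 and did not pass (adjusted p = 0.0779).

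The other two polymerase genes differed more between arrays of a group. For rpoC2 the arrays gave 117.8 and 72.8 in NahG, 169.4 and 62.5 in ein2, 71.4 and 80.5 in coi1, 69.7 and 186.4 in stage 6.0 wild type, with 263.8 and 220.0 in stage 3.9 wild type. Its stage difference of -0.96 ± 0.43 (SE) did not pass (adjusted p = 0.102 in limma), although the arrays of the 2 stages did not overlap. For rpoC2 the difference was -0.34 without stage 6.0 array 1 and -1.58 without array 2. The arrays gave for rpoB 126.5 and 49.4 in NahG, 464.9 and 114.5 in ein2, 15.8 and 18.2 in coi1, 10.5 and 596.1 in stage 6.0 wild type, with 520.1 and 428.3 in stage 3.9 wild type. Of the 26 genes rpoB had the widest range, with the brightest array 57.0 times the dimmest, and the 2 wild type arrays of stage 6.0 were at its opposite ends. Its stage difference of -1.94 ± 1.1 (SE, adjusted p = 0.194 in limma) was 0.33 without stage 6.0 array 1 and -4.2 without array 2.

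**Figure D2:**
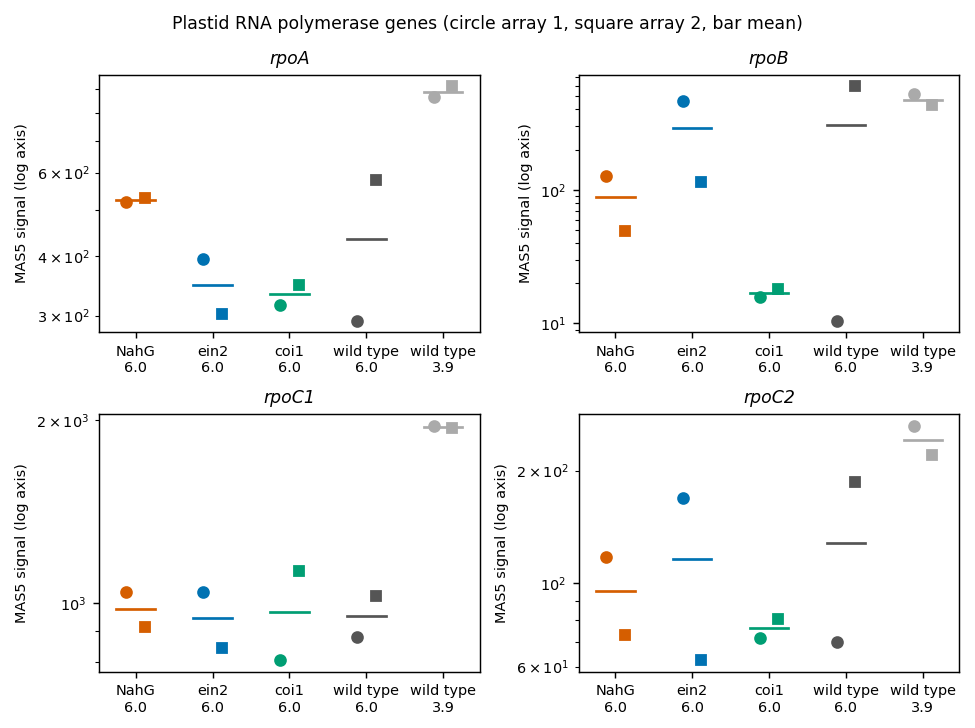
MAS5 signal (log axis) of the 4 polymerase genes on each array by group; circles are array 1, squares array 2 and bars the mean of the 2 signals. The rpoA and rpoC1 signals of all stage 6.0 arrays lie below those of stage 3.9, while rpoB spans 10.5 to 596.1 within wild type at stage 6.0.

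Small subunit genes fell in 6 of 8 cases. The gene rps3 encodes a protein that in bacterial ribosomes sits where messenger RNA enters. Its transcript had signals of 523.5 and 509.3 in NahG, 517.3 and 432.1 in ein2, 558.4 and 607.1 in coi1, 491.1 and 657.5 in stage 6.0 wild type, with 1414.0 and 1319.4 in stage 3.9 wild type. Each stage 6.0 array, of any genotype, had less than any stage 3.9 array. In wild type rps3 fell by 1.24 ± 0.19 on the log2 scale (SE, adjusted p = 0.000508 in limma), the smallest p among the 26 genes, and passed under all alternatives tried except scaling to the hybridisation controls (-0.45, adjusted p = 0.387).

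The signals of rps18 were 332.9 and 442.3 in NahG, 362.5 and 471.2 in ein2, 353.2 and 424.5 in coi1, 275.2 and 421.8 in stage 6.0 wild type, with 716.0 and 882.9 in stage 3.9 wild type. No stage 6.0 array reached the stage 3.9 level, and rps18 fell in wild type by 1.18 ± 0.25 (SE, adjusted p = 0.00333 in limma). The other falls in this class were rps2 (-1.19 ± 0.31), rps16 (-1.12 ± 0.37), rps19 (-1.07 ± 0.29) and rps4 (-0.94 ± 0.24), with adjusted p from 0.0102 to 0.0363. Without wild type stage 6.0 array 1 these 4 measured -0.86, -0.45, -0.88 and -0.73 and did not pass. After quantile normalization rps2 (-0.87, adjusted p = 0.0796 in limma) and rps4 (-0.29, 0.35) did not pass.

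The remaining small subunit genes, rps14 and rps15, did not pass. Array values of rps14 were 202.0 and 61.1 in NahG, 698.4 and 160.0 in ein2, 45.2 and 60.9 in coi1, 47.3 and 840.1 in stage 6.0 wild type, with 807.1 and 551.1 in stage 3.9 wild type. The wild type arrays of stage 6.0 were the brightest and the second dimmest of the 10, so the stages overlapped. Its stage difference was -1.55 ± 1.0 (SE, adjusted p = 0.25 in limma), with 0.33 without stage 6.0 array 1 and -3.43 without array 2. For rps15 the mean signal was 89.5 ± 42.2 in wild type at stage 6.0 and 167.7 ± 3.88 at stage 3.9 (SD, n = 2 arrays each), a difference of -0.86 ± 0.43 (SE), with -0.44 without stage 6.0 array 1.

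Large subunit genes fell in 5 of 7 cases, with the greatest passing difference among all 26 genes in rpl16. In bacteria the protein of the same name lies near the site where transfer RNAs bind. The rpl16 signals were 537.3 and 598.2 in NahG, 841.2 and 487.8 in ein2, 721.6 and 503.4 in coi1, 439.6 and 833.9 in stage 6.0 wild type, with 1808.0 and 1502.1 in stage 3.9 wild type. All arrays of stage 6.0 were below those of stage 3.9, and in wild type rpl16 fell by 1.42 ± 0.32 (SE, adjusted p = 0.00585 in limma). Without stage 6.0 array 1 it measured -0.97 (adjusted p = 0.0561).

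Signals of rpl22, whose bacterial counterpart lines the exit tunnel of the ribosome, were 290.4 and 188.3 in NahG, 348.0 and 195.2 in ein2, 214.1 and 158.1 in coi1, 182.2 and 391.2 in stage 6.0 wild type, with 727.2 and 587.7 in stage 3.9 wild type. The stage 6.0 arrays were again all lower, with the highest of them wild type array 2. The rpl22 difference in wild type was -1.24 ± 0.36 (SE, adjusted p = 0.0199 in limma), and -0.72 (adjusted p = 0.171) without stage 6.0 array 1. Also lower were rpl14 (-1.23 ± 0.42), rpl33 (-1.18 ± 0.29) and rpl32 (-0.90 ± 0.23), with adjusted p from 0.00798 to 0.0418. The rpl14 call was lost in 13 of 21 alternatives, among them 1 added (adjusted p = 0.0507 in limma) and no filter (0.0942). After quantile normalization rpl14 (-1.20, adjusted p = 0.0572 in limma) and rpl33 (-0.77, 0.0736) did not pass. Without stage 6.0 array 1 rpl14 measured -0.61 and rpl33 -0.67, and neither passed, while rpl32 did not pass without array 2 (-0.80, adjusted p = 0.0624) or stage 3.9 array 1 (-0.70, adjusted p = 0.0673).

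The rpl20 and rpl36 differences, -1.12 ± 0.63 and -1.17 ± 0.45 (SE), did not pass, with adjusted p of 0.187 and 0.0642 in limma. Without stage 6.0 array 1 they were -0.39 and -0.50, and without array 2 rpl20 measured -1.86 and rpl36 -1.83. The rpl36 fall passed in 6 of 21 alternatives, among them 64 added (adjusted p = 0.0471 in limma) and quantile normalization (0.0428). In rpl36 the array signals were 83.6 and 41.3 in NahG, 143.1 and 56.3 in ein2, 40.2 and 25 in coi1, 42.8 and 131.7 in stage 6.0 wild type, with 190.0 and 196.6 in stage 3.9 wild type. Its highest values were the stage 3.9 arrays and its lowest the coi1 arrays, and 4 of the 10 arrays were under the filter level of 50.

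Of the 7 genes of other function 4 fell, matK, cemA, ccsA and clpP, although clpP and ccsA stood at 0.13 and 0.06 when scaled to the hybridisation controls. The clpP gene encodes the proteolytic subunit of the Clp protease of the plastid stroma. Its signals were 2841.1 and 2735.4 in NahG, 2667.3 and 2896.1 in ein2, 1933.9 and 2738.1 in coi1, 2265.8 and 2360.6 in stage 6.0 wild type, with 3734.2 and 3652.3 in stage 3.9 wild type. With all 8 stage 6.0 arrays below stage 3.9, it fell in wild type by 0.67 ± 0.19 (SE, adjusted p = 0.0178 in limma). Among the 26 genes it had the smallest ratio of brightest to dimmest array, 1.93.

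The maturase gene matK, whose product takes part in splicing plastid introns, gave 1861.2 and 1524.2 in NahG, 1802.7 and 1558.3 in ein2, 1369.6 and 2087.2 in coi1, 1479.8 and 1594.3 in stage 6.0 wild type, with 2860.1 and 2766.8 in stage 3.9 wild type. All stage 6.0 arrays were lower, and the wild type difference was -0.87 ± 0.22 (SE, adjusted p = 0.00967 in limma). The ccsA product attaches haem to c-type cytochromes. The arrays read for ccsA 3147.2 and 2505.1 in NahG, 2559.1 and 3203.5 in ein2, 1901.8 and 2730.7 in coi1, 2260.0 and 2568.2 in stage 6.0 wild type, with 4127.6 and 3976.5 in stage 3.9 wild type. No stage 6.0 array overlapped stage 3.9, and ccsA measured -0.75 ± 0.22 (SE, adjusted p = 0.0207 in limma) in wild type.

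The cemA gene encodes a protein of the inner envelope. It gave 1502.8 and 969.3 in NahG, 1212.5 and 936.4 in ein2, 1008.3 and 911.9 in coi1, 1093.5 and 1156.7 in stage 6.0 wild type, with 2269.1 and 1843.9 in stage 3.9 wild type. Its stage 6.0 arrays were all below stage 3.9, with a wild type difference of -0.85 ± 0.23 (SE, adjusted p = 0.0144 in limma). Without wild type stage 6.0 array 1 the differences of matK (-0.81, adjusted p = 0.058), cemA (-0.81, 0.0708), clpP (-0.64, 0.0868) and ccsA (-0.65, 0.116) no longer passed. After quantile normalization all 4 calls were lost as well, at -0.35 for matK (adjusted p = 0.143 in limma), -0.45 for cemA (0.184), -0.05 for ccsA (0.804) and -0.01 for clpP (0.954).

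The genes ycf3 and ycf4 encode assembly factors of photosystem I, and neither passed. For ycf3 the signals were 369.0 and 146.1 in NahG, 704.9 and 194.2 in ein2, 122.0 and 132.7 in coi1, 90.3 and 633.4 in stage 6.0 wild type, with 661.2 and 449.9 in stage 3.9 wild type. Stage 6.0 wild type again held its dimmest array next to a bright one. The ycf3 stage difference of -1.10 ± 0.76 (SE, adjusted p = 0.287 in limma) was 0.21 without stage 6.0 array 1 and -2.4 without array 2. For ycf4 they were 1170.6 and 486.4 in NahG, 1328.0 and 532.6 in ein2, 453.0 and 390.4 in coi1, 439.1 and 1224.2 in stage 6.0 wild type, with 1695.2 and 1401.7 in stage 3.9 wild type. All arrays of stage 6.0 were dimmer, yet the ycf4 difference of -1.05 ± 0.53 (SE) did not pass (adjusted p = 0.142 in limma). It was -0.33 without stage 6.0 array 1 and -1.78 without array 2.

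The accD gene, for the carboxyltransferase beta subunit of acetyl-CoA carboxylase in fatty acid synthesis, had the stage difference closest to 0. Its signals were 1000.5 and 523.0 in NahG, 1247.4 and 596.3 in ein2, 526.7 and 507.8 in coi1, 666.5 and 958.7 in stage 6.0 wild type, with 1055.8 and 908.3 in stage 3.9 wild type. The stages overlapped in wild type, and ein2 array 1 was the brightest of the 10. The difference was -0.29 ± 0.36 (SE, adjusted p = 0.566 in limma), with 0.51 when scaled to the hybridisation controls.

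**Figure D3:**
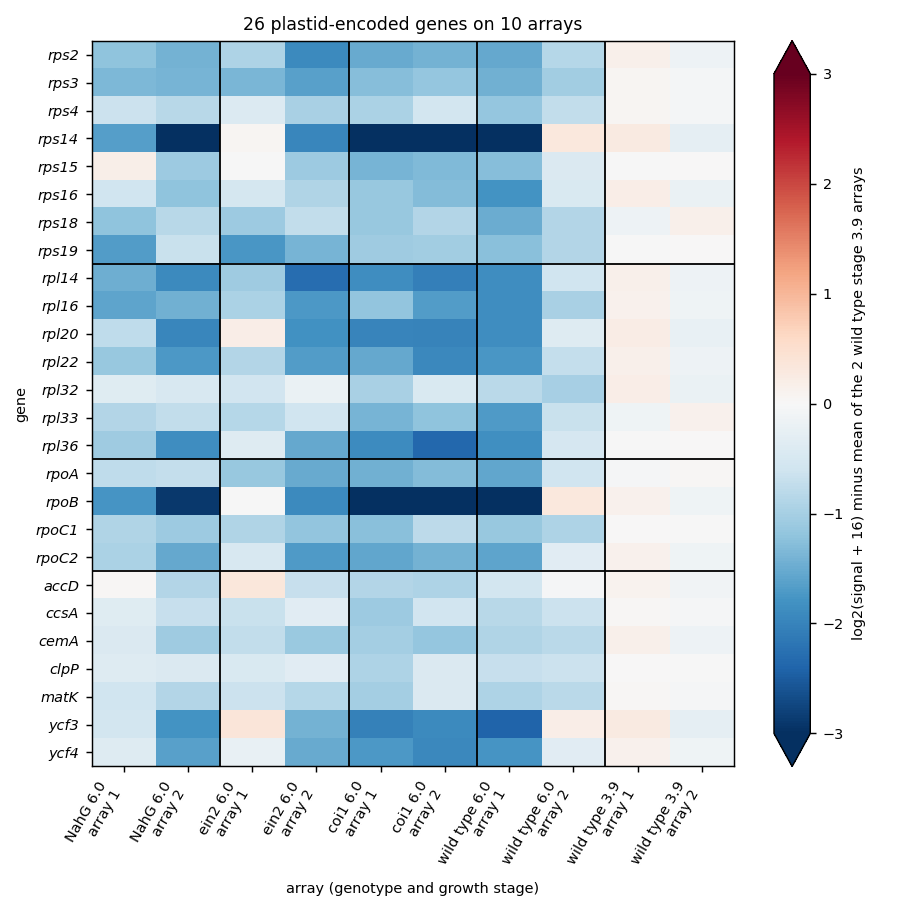
Heat map of the 26 genes (rows, by class) on the 10 arrays (columns), as log2 of the signal with 16 added minus the mean of the 2 wild type stage 3.9 arrays; blue is lower, red higher, and the colour scale ends at -3 and 3. For 19 genes all 8 stage 6.0 arrays are below both stage 3.9 arrays.

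Over all genotypes, the 8 arrays of stage 6.0 were below both arrays of stage 3.9 for 19 of the 26 genes, against 17.8% of all probe sets tested. The exceptions were rps14, rps15, rpl20, rpl32, rpoB, ycf3 and accD. Counted by genotype, both arrays lay below both wild type stage 3.9 arrays for 24 genes in NahG, 20 in ein2 and 26 in coi1. Over all probe sets tested the same held for 31.3% in NahG, 29.7% in ein2 and 30.4% in coi1. In an F test over the 5 groups 13 of the 26 genes (50%) differed, against 40.5% of all probe sets tested.

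None of the 26 genes passed in any altered genotype against wild type at stage 6.0. In NahG 0 passed while 9.11% of all probe sets tested did, in ein2 0 with 0.123% and in coi1 0 with 1.01% (limma, adjusted p under 0.05 in either direction). Without adjustment, 0 had a p under 0.05 in each of the 3 comparisons, while 23.1% of all probe sets tested did in NahG, 10.1% in ein2 and 14.3% in coi1. The median difference was -0.02 in NahG, 0.20 in ein2 and -0.25 in coi1, beside 0.01, 0.01 and 0.04 over all probe sets tested. These 3 comparisons and the stage comparison share the wild type stage 6.0 arrays. Without array 1 of that pair the medians were -0.37 (NahG), -0.39 (ein2) and -0.70 (coi1), and without its array 2 they were 0.36 (NahG), 0.47 (ein2) and 0.11 (coi1). The ein2 median was also negative when scaled to the hybridisation controls (-0.08). A p that misses the threshold does not show equal levels.

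The genes of smallest p in NahG were rpl32 and clpP. The rpl32 signals were 1385.6 and 1284.4 in NahG, 1191.8 and 1556.1 in ein2, 897.0 and 1288.9 in coi1, 1020.7 and 885.6 in stage 6.0 wild type, with 2064.0 and 1551.0 in stage 3.9 wild type. Both NahG arrays and both ein2 arrays were above the wild type arrays of their stage, and the coi1 arrays overlapped them. In NahG rpl32 measured 0.48 ± 0.23 (SE, adjusted p = 0.245 in limma) and clpP 0.27 ± 0.19 (adjusted p = 0.446), both with arrays that did not overlap wild type. In ein2 rpl32 measured 0.51 ± 0.23 (SE, adjusted p = 0.495 in limma).

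The second gene of smallest p in ein2 was rps19. Its arrays gave 401.9 and 823.0 in NahG, 383.4 and 493.2 in ein2, 628.4 and 633.5 in coi1, 540.8 and 711.4 in stage 6.0 wild type, with 1310.8 and 1334.7 in stage 3.9 wild type. Both ein2 arrays were below the wild type arrays of their stage, while the NahG arrays lay on either side of the wild type arrays. The ein2 difference of rps19 was -0.50 ± 0.29 (SE, adjusted p = 0.599 in limma).

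In coi1 the smallest p belonged to rpl36 (-0.96 ± 0.45, SE, adjusted p = 0.371 in limma) and rpoB (-1.95 ± 1.1, adjusted p = 0.464). Both coi1 arrays were below both wild type stage 6.0 arrays for 6 of the 26 genes (23.1%), near the 20.2% of all probe sets tested. Without wild type stage 6.0 array 1 the rpoB difference was -4.21 in coi1 and -2.66 in NahG. Without array 2 of that group it was 0.32 in coi1 and 1.87 in NahG. Scaled to the hybridisation controls, rpoB (-2.01, adjusted p = 0.00152 in limma) and rps14 (-1.85, adjusted p = 0.0107) passed as lower in coi1, beside 0.813% of all probe sets tested. Both arrays of the altered genotype lay between the 2 wild type arrays of stage 6.0 for 12 genes in NahG (46.2%), 5 in ein2 (19.2%) and 10 in coi1 (38.5%), against 11.6%, 13.0% and 14.8% of all probe sets tested in those comparisons.

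Between the altered genotypes none of the 26 genes passed with all 10 arrays in the fit and the trimmed mean scaling. In NahG against coi1 0 passed, with 11.0% of all probe sets tested, and the median was 0.31; rpoA had the smallest p (0.64 ± 0.27, SE, adjusted p = 0.173 in limma). In NahG against ein2 0 passed, with 7.53% of all, and the median was -0.06, with rpoA again of smallest p (0.58 ± 0.27, SE, adjusted p = 0.265 in limma). In ein2 against coi1 0 passed, with 0.706% of all, and the median was 0.33. Unadjusted p values under 0.05 numbered 1, 0 and 3 in these comparisons, against 24.5%, 19.7% and 16.1% of all probe sets tested. The 3 were rpoB (2.92 ± 1.1), rpl36 (1.16 ± 0.45) and rps14 (2.37 ± 1.0) in ein2 against coi1. In a fit over the 2 groups alone rpoA (0.64, adjusted p = 0.0226 in limma) and rpoB (1.55, 0.00386) passed as higher in NahG than in coi1, and rpoB (2.92, 0.00435) and rps14 (2.37, 0.0166) as higher in ein2 than in coi1. Scaled to the hybridisation controls, rpoB passed in both comparisons with coi1 and rps14 in that of ein2. The shares of all probe sets that passed in these 2-group fits and under that scaling are not given here. These calls therefore have no general rate beside them. For ein2 against coi1 rpoB also passed when 1 of the wild type stage 6.0 arrays was left out, whichever it was. Both coi1 arrays are arrays of low 5S signal, and its part in these differences was not tested.

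Much of what separated the arrays lay within groups. The median absolute difference between the 2 arrays of a group, in log2, was 0.52 in NahG, 0.66 in ein2, 0.19 in coi1, 0.87 in stage 6.0 wild type and 0.27 in stage 3.9 wild type for the 26 genes. Over all probe sets tested it was 0.21, 0.23, 0.18, 0.22 and 0.23 in the same groups, and for the plastid-encoded photosynthesis genes 0.35, 0.56, 0.42, 0.59 and 0.23. Wild type stage 6.0 array 2 was the brighter of its pair for 25 of the 26 genes, all but rpl32. In NahG array 1 was brighter for 21 genes and in ein2 for 20.

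The spread was unequal between genes. At stage 6.0 the wild type arrays differed by more than 1 in log2 for 11 of the 26 genes (42.3%), against 2.4% of all probe sets tested. These 11 were rpoB, rps14, ycf3, rpl20, ycf4, rps16, rpl14, rpl22, rpoC2, rpl36 and rpl33. For 6 genes, ccsA, cemA, clpP, matK, rpl32 and rpoC1, the same arrays differed by less than 0.3. The 3 arrays of low 5S signal were dimmer than every other array for 6 of the 26 genes (23.1%), namely rpoB, rps14, ycf3, ycf4, rps15 and rpl33. That held for 13 of the 43 plastid-encoded photosynthesis genes (30.2%) and for 1.72% of all probe sets tested. The part of the 5S signal in these differences was not tested.

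**Figure D4:**
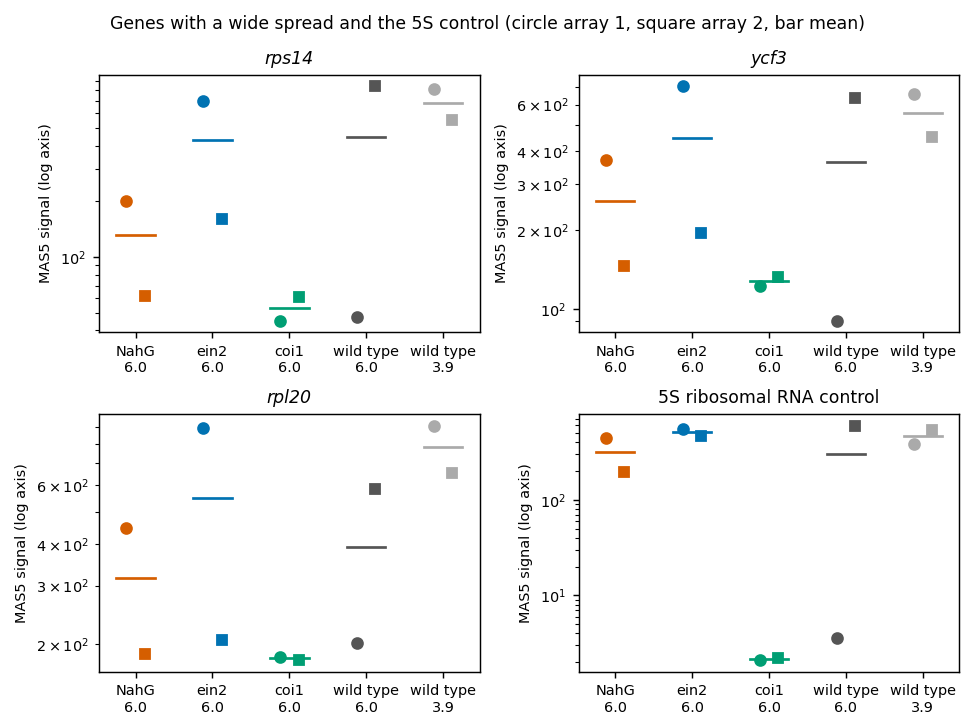
MAS5 signal (log axis) of rps14, ycf3 and rpl20, and of the 5S ribosomal RNA control, on each array by group; circles are array 1, squares array 2 and bars the mean. In rps14 and ycf3 the dimmest arrays are both coi1 arrays and wild type stage 6.0 array 1, the arrays on which the control is under 10, while NahG array 2 is also dim in rps14 (61.1) without a low control (194.6).

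**Figure D5:**
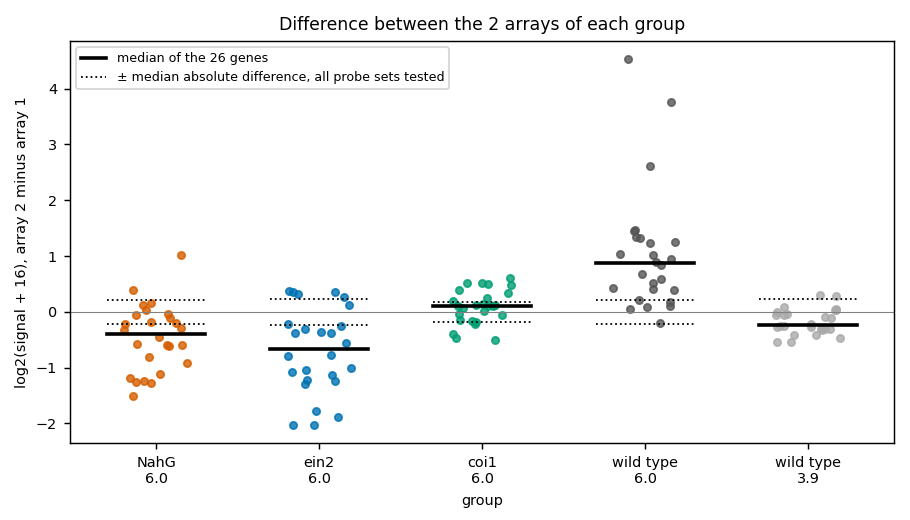
Difference between the 2 arrays of each group, array 2 minus array 1, in log2 of the signal with 16 added; each point is 1 of the 26 genes, the thick bar their median and the dotted lines plus and minus the median absolute difference over all probe sets tested. In wild type at stage 6.0 all but 1 gene lie above 0 and the highest, rpoB, is at 4.53.

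Neighbours on the plastid genome did not always share the same spread. In the annotated order of the genes measured here, rpoA, rpl36, rpl14, rpl16, rps3, rpl22 and rps19 follow each other. Of these 7 genes 6 fell in wild type at stage 6.0, with differences from -1.42 to -1.07, and their stage 6.0 wild type arrays differed by 0.39 to 1.33. In the run of rps2, rpoC2, rpoC1 and rpoB, 2 of 4 fell, and the wild type arrays of stage 6.0 differed by 0.22 in rpoC1 and by 4.53 in rpoB, which lie next to each other. In the run of rpl33, rps18 and rpl20, 2 of 3 fell and the differences were -1.18 to -1.12. The genes psaB and psaA lie between rps14 and ycf3; of these 4 neighbours psaB differed between the stage 6.0 wild type arrays by 0.18, psaA by 2.06, ycf3 by 2.61 and rps14 by 3.76.

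Other lists give the setting of the stage result. Among the plastid-encoded photosynthesis genes 19 of 43 fell (44.2%) and 0 rose at stage 6.0 in wild type, with a median of -0.93. Of all 12184 probe sets tested 17.2% fell and 2461 rose. Of 9 mitochondrial genes tested 1 rose (11.1%) and 0 fell (median 0.41). MRL7-L, a nuclear gene for a protein associated with the plastid polymerase, was the only tested gene of that list and fell by 0.61, and CLPP4, the only tested nuclear Clp subunit, measured -0.43 and did not pass. No probe set is named here for plastid sigma factors, phage-type polymerases, nuclear acetyl-CoA carboxylase subunits or nuclear-encoded plastid ribosomal proteins, so these were not analysed.

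The tissue label was checked with mesophyll markers, of which 6 of 18 listed genes have a named probe set. The dimmest of the 6 had a signal of at least 239.0 on every array, so none was at 0. All 6 fell at stage 6.0 in wild type (median -1.79), beside 17.2% of all probe sets tested. Their summed signal was 5665.4 and 7126.7 at stage 6.0, against 25924.6 and 20055.0 at stage 3.9. The NahG arrays summed to 8587.9 and 8287.0, the ein2 arrays to 6774.0 and 6293.3 and the coi1 arrays to 7709.6 and 9567.8. Against wild type at stage 6.0, 3 of the 6 markers passed as higher in NahG (median 0.45) and 0 as lower. In ein2 and coi1 0 passed. Of all probe sets tested 9.11% passed in NahG in either direction, 0.123% in ein2 and 1.01% in coi1. The part of these markers in the differences of the plastid genes was not tested. Of the root and guard cell lists 1 gene each has a named probe set, EXPA7 and FMA, and neither passed the filter, while floral and trichome markers have none.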

How the data were processed

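The deposited values are intensity on a linear scale for 10 arrays, produced by the authors with MAS5 (no version given) per the submitters' processing notes, without detection calls. After the 64 control probe sets were set aside, signals were rescaled so that the 2% trimmed mean of each array was 100. A probe set was tested if 2 arrays or more reached a signal of 50, which 12184 did. Log2(signal + 16) was fitted with limma 3.58.1 in R 4.3.3 (lmFit, eBayes with trend) over all 10 arrays and 5 groups, with 5 residual degrees of freedom. P-values were adjusted by Benjamini-Hochberg over all probe sets tested, and 0.05 was the threshold. The added 16 shrinks differences of dim genes. With 2 arrays per group the number of arrays limits the precision, and the median standard error of the stage difference was 0.21.

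Genes were named from the platform's probe table, with symbols and neighbours from the TAIR10.1 annotation; 13513 probe sets name 1 gene, 503 several and 8794 none. No coordinates or sequences are given. The genes and lists were chosen with earlier results of these data known. Array values are printed for all polymerase genes, clpP, accD, matK, ccsA, cemA and ycf genes, for the 3 largest falls that passed and for the 2 genes of smallest p where none passed, in the stage comparison and those of NahG, ein2 and coi1 with wild type. Those of rps14 and rps18 were added after their values were seen. Alternatives were another added constant, filter, normalization, scaling, variance model, set of arrays and a replicate block. Correlations of deviations between same-numbered arrays were 0.0762 for the wild type stocks and -0.133 for NahG and coi1. They were 0.337 for NahG and ein2 and 0.216 for ein2 and coi1. The main fit did not pair arrays by number or stock, and these values do not decide whether it should. Tables came from pandas 2.3.3 and numpy 2.4.6 under python 3.11.15, and plots from matplotlib 3.10.9.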

Additional observations from a re-analysis of the deposited data

Results flagged for a closer look

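In 4 genes the stage difference had opposite signs in the 2 wild type stocks, each with 1 array per stage, and the difference between stocks was not tested. The stage difference in N933 minus that in N1644, in log2, was -4.80 for rpoB (-4.34 and 0.46), -4.29 for rps14 (-3.70 and 0.59), -3.15 for ycf3 (-2.67 and 0.48) and -0.73 for accD (-0.65 and 0.08). The N933 array of stage 6.0 is the one with a 5S control signal of 3.62, and the N1644 array of that stage is the one whose labels name 2 different lines.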

How the results depend on the processing

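The stage median stayed negative under all alternatives tried. The stage count of 17 falls became 10 after quantile normalization and 1 when scaled to the hybridisation controls (median -0.31). Of all probe sets tested 18.6% and 3.64% fell in these 2 settings. Without the arrays of low 5S signal the median was -0.65. Leaving out 1 array at a time gave 4 to 21 falls and medians from -1.54 to -0.65. Scaled to the hybridisation controls, ccsA (0.06) and clpP (0.13) reversed. Leaving out 1 array gave medians of -0.37 to 0.36 in NahG, -0.39 to 0.47 in ein2 and -0.70 to 0.11 in coi1. Without the arrays of low 5S signal the ein2 median was -0.39. Genes lower in coi1 numbered 2 when scaled to the hybridisation controls, beside 0.813% of all probe sets tested that were lower. For NahG against coi1 the count was 1 with that scaling and 2 in a fit over the 2 groups alone. For ein2 against coi1 it was 2 and 2, with 0 to 1 on leaving out 1 array. The F test count of 13 became 7 without a filter, 7 after quantile normalization, 3 when scaled to the hybridisation controls and 6 to 19 on leaving out 1 array. The causes of these changes were not tested. For the NahG against coi1, ein2 against coi1 and F test counts above, shares of all probe sets under these settings are not given here. By their labels, same-numbered arrays share only a number or a stock code. With the replicate block 18 genes fell, rpl36 in addition, beside 18.2% of all probe sets tested, and 0 changed in each genotype. Adding 1 or 64 instead of 16 gave 16 and 18 falls, no filter 13, a filter of 100 on 2 arrays 17 and a fit over the 2 groups 15. Of all probe sets tested 16.8%, 17.6%, 9.25%, 19.5% and 13.3% fell in these settings, in the same order. Both coi1 arrays had a low 5S signal, so leaving out the arrays of low 5S signal gives no coi1 value. A group left with 1 array was assumed to vary like the other groups.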
